A study of Mus musculus with 24 samples.

Results

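The genes described are 6 CC chemokine ligands (Ccl2, Ccl3, Ccl4, Ccl7, Ccl9 and Ccl12), the receptors Ccr1 and Ccr2, and the decoy receptor Ackr2. They were taken as the rows whose Ensembl identifier maps to 1 of these 9 symbols, which gave 9 of 36109 genes listed for the lung and 9 of 36595 listed for the retina. RNA sequencing covered whole lungs and whole retinas of newborn C57/B6 mice, 24 libraries in all, with 3 mice in each of 4 groups per tissue. Wild-type pups kept in room air are WT-RA and those exposed to oxygen WT-O2, and the knockout pups are likewise KO-RA and KO-O2. GSDMD-KO mice are global knockouts that carry a CRISPR/Cas9 deletion of 38 bases in exon 5 of Gsdmd on both alleles, and both genotypes were littermates from heterozygous parents. Pups used for lungs breathed 85% oxygen, or 21% oxygen as room air, from postnatal day 1 to day 14, and lungs were taken on day 15. Pups used for retinas breathed 75% oxygen from day 7 to day 12 and then recovered in room air, or stayed in room air throughout, and retinas were taken on day 18. The question was how hyperoxia changed these genes in each genotype, and whether the change differed without GSDMD, the pore-forming protein of pyroptotic cell death.

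CC chemokines are small secreted proteins that draw monocytes, macrophages and lymphocytes along a gradient by binding G-protein-coupled receptors on them. CCL2, CCL7 and CCL12 are monocyte attractants that bind CCR2, whereas CCL3 and CCL9 bind CCR1. CCL4 attracts macrophages and T cells. ACKR2 binds many inflammatory CC chemokines without G-protein signaling and carries them into the cell for degradation.

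All 6 ligand genes lie on mouse chromosome 11, in a pair of clusters, and the receptor genes lie on chromosome 9. In the GRCm38 annotation the first cluster holds Ccl2 (chr11:82035571-82037453, + strand), Ccl7 (chr11:82045712-82047525, + strand) and Ccl12 (chr11:82101845-82103400, + strand). The second holds Ccl9 (chr11:83572919-83578636, - strand), Ccl3 (chr11:83647844-83649355, - strand) and Ccl4 (chr11:83662584-83664683, + strand). Ackr2 (chr9:121898355-121911074, + strand) lies apart from Ccr1 (chr9:123962124-123968692, - strand) and Ccr2 (chr9:124101950-124113557, + strand).

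The RefSeq promoter set (GRCm38.p6) held a window for 6 of the 9 genes (Ackr2, Ccr1, Ccr2, Ccl3, Ccl9 and Ccl12). The 250 bases upstream of the transcription start are shown for the 3 ligands among them, because these ligands responded to hyperoxia to different degrees. Capitals mark matches, on either strand, to a simplified NF-kB motif (GGNNTTTCC), an AP-1 motif (TGANTCA) and a TATA box (TATAAA).
Ccl12, chr11:82101595-82101844, + strand: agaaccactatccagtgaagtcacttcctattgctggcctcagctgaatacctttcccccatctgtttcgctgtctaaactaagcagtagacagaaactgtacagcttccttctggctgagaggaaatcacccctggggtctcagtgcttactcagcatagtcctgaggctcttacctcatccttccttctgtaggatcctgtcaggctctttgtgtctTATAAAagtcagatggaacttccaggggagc
Ccl9, chr11:83578637-83578886, - strand: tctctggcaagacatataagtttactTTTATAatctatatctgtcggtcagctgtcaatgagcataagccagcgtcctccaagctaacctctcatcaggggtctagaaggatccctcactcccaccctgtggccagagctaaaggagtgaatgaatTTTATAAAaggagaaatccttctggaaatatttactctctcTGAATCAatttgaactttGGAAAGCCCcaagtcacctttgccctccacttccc
Ccl3, chr11:83649379-83649628, - strand: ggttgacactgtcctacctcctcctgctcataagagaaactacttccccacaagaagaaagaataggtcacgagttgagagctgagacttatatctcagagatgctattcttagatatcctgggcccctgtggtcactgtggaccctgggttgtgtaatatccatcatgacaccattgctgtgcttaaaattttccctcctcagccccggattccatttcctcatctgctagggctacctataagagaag
In the Ccl12 window the TATA box began 31 bases before the start. In the Ccl9 window the NF-kB match (GGAAAGCCC) began 35 bases and the AP-1 match (TGAATCA) 53 bases before the start, and TATA matches began 224, 94 and 92 bases before it, the last pair overlapping each other on opposite strands. The Ccl3 window held none of these letters. Of all 32851 windows of this length, 4.93% held the NF-kB letters, 6.75% the AP-1 letters and 12.4% the TATA letters, so a match is a description of the window and not evidence of a bound site.

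Sums of counts assigned to genes ran from 28763661 to 29604254 per lung library and from 24863257 to 29093035 per retina library. Levels are given as CPM, that is, counts scaled to the library's total over the genes tested times its TMM normalization factor. The targeted gene, Gsdmd, was at 41.4, 42.3 and 40.6 CPM in WT-RA lungs, 32.1, 36.4 and 34.8 CPM in WT-O2 lungs, 24.8, 24.5 and 22.6 CPM in KO-RA lungs, and 11.7, 13.1 and 16.3 CPM in KO-O2 lungs, so every KO lung lay below every WT lung. In the retina it was at 4.08, 0.419 and 2.70 CPM in WT-RA mice, 5.70, 2.90 and 3.85 CPM in WT-O2 mice, 0.980, 0.774 and 0.636 CPM in KO-RA mice, and 1.11, 1.44 and 2.95 CPM in KO-O2 mice, and the library labelled WT-RA replicate 2 lay below every KO retina. These counts span the whole gene and do not read the deleted bases alone, so they check the genotype only indirectly. Surfactant and airway genes summed to 21796 CPM or more in every lung and to at most 9.84 CPM in any retina, whereas photoreceptor and other retina genes summed to 45586 CPM or more in every retina and to at most 3.04 CPM in any lung. Y-linked genes were expressed in 0 of 3 WT-RA lungs, 1 of 3 WT-O2 lungs, 2 of 3 KO-RA lungs and 3 of 3 KO-O2 lungs, and in 3, 1, 3 and 1 of 3 retinas of the same groups. Erythroid genes summed to 15750 to 18153 CPM in WT-RA lungs and 12675 to 26853 CPM in KO-RA lungs, against 2920 to 4152 CPM in WT-O2 lungs. KO-O2 lungs 1 and 2, at 26293 and 29928 CPM, lay near or above the room-air lungs, whereas the third was at 5970 CPM. The pair is called erythroid-rich only relative to the other hyperoxic lungs. The labels do not name litters or cages, and p-values measure the spread between these mice.

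Hyperoxia raised most of the CC ligands and Ccr1 in the lung, in both genotypes. A gene was called when edgeR's quasi-likelihood test gave an adjusted p under 0.1 (Benjamini-Hochberg), a p under 0.05 and a change of 2-fold or more. In WT lungs 5 of 9 genes were called higher (Ccl2, Ccl3, Ccl7, Ccl12 and Ccr1) and 0 lower, where 5.04% of the 16819 genes tested were called higher and 6.57% lower. In KO lungs 7 of 9 were called higher (the same 5 with Ccl4 and Ccl9) and 0 lower, where 4.57% of all genes were called higher and 6.03% lower. The median log2 fold change of the 9 genes was 1.18 in WT and 1.39 in KO, against -0.01 for all genes in each. Ccl4 and Ccl7 passed the filter on low counts only because of hyperoxic lungs, and the 9 genes were chosen with earlier results of these data known. Setting them against all genes is therefore a description and not a test. In this bulk tissue, a change in the number of producing cells and a change in RNA per cell cannot be told apart.

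**Figure D1:**
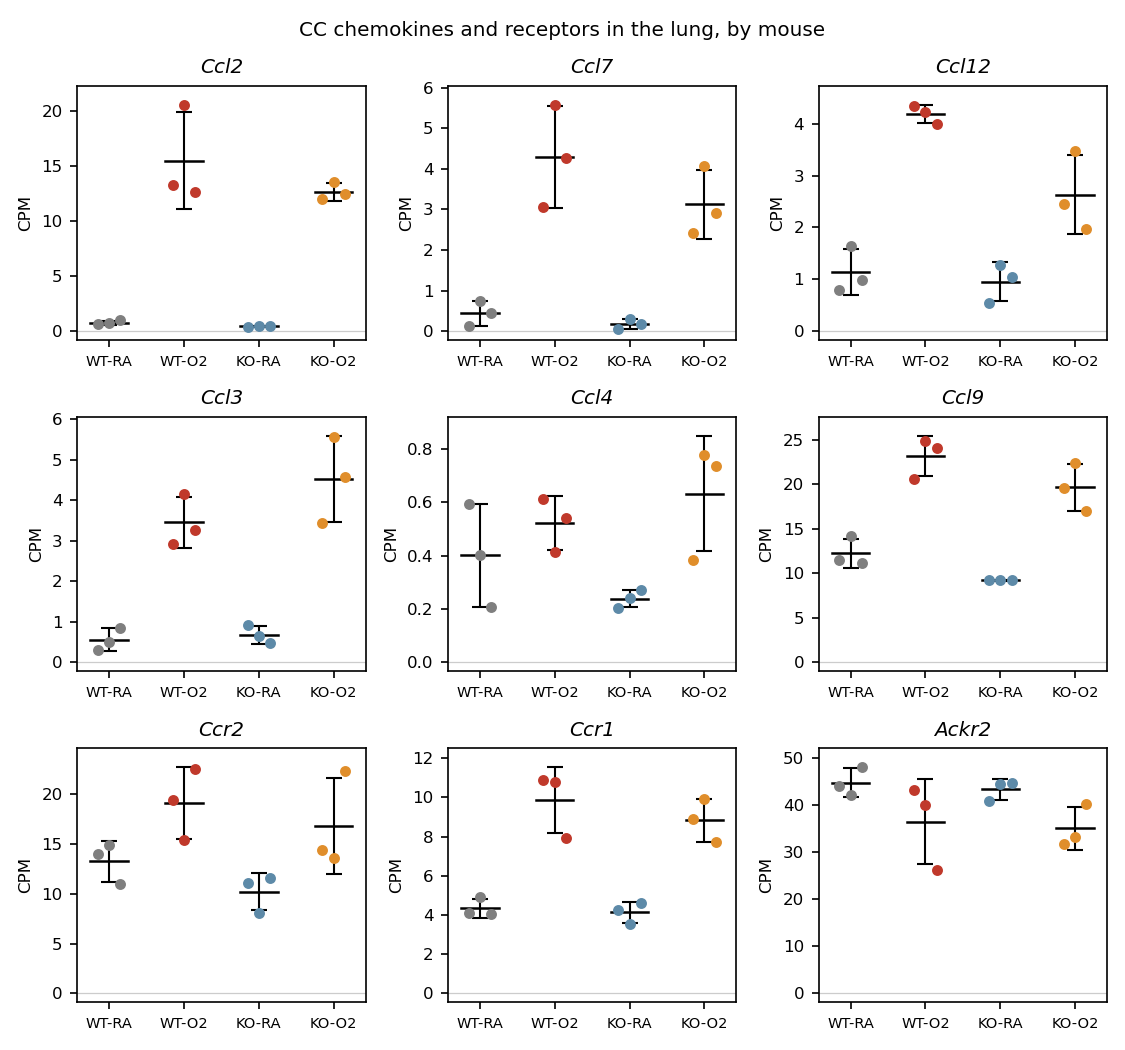
Level in CPM (y axis, from 0) of each CC gene in every lung, by group (x axis). Points are mice, horizontal lines are means and bars are SD over 3 mice; Ccl2, Ccl7, Ccl12, Ccl3 and Ccr1 were higher in every hyperoxic lung than in any room-air lung, while Ackr2 lay between 26.1 and 48.1 CPM throughout.

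Ccl2 encodes the main attractant of inflammatory monocytes and changed most among the 9 genes. Its level was 0.628, 0.740 and 0.998 CPM in WT-RA lungs and 13.3, 20.5 and 12.6 CPM in WT-O2 lungs. In KO mice it was 0.376, 0.448 and 0.509 CPM in room air and 12.0, 13.5 and 12.4 CPM in hyperoxia. Every hyperoxic lung was above every room-air lung, and the KO-O2 lungs lay within or just below the range of the WT-O2 lungs. The log2 fold change was 4.29 ± 0.23 (SE) in WT, a 19.5-fold rise (edgeR, adjusted p = 7.5e-09), and 4.82 ± 0.25 in KO, a 28.2-fold rise (edgeR, adjusted p = 7.3e-09). An annotated gene on the opposite strand, Gm17268, overlaps Ccl2 and was listed at 0 in all 24 libraries.

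Ccl7, which encodes a second CCR2 ligand and lies next to Ccl2, followed the same order of groups. It was at 0.140, 0.740 and 0.447 CPM in WT-RA lungs against 3.07, 5.57 and 4.26 CPM in WT-O2, and at 0.0683, 0.310 and 0.170 CPM in KO-RA against 2.41, 4.07 and 2.91 CPM in KO-O2. Again no hyperoxic lung fell into the room-air range. This was a log2 fold change of 3.26 ± 0.44 in WT (9.59-fold, edgeR, adjusted p = 4.6e-05) and 4.07 ± 0.50 in KO (16.8-fold, adjusted p = 2.7e-05), from 2 to 22 counts per room-air library.

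Ccl12, a CCR2 ligand found in rodents, rose less. It was at 0.803, 1.65 and 0.998 CPM in WT-RA and 4.33, 4.23 and 3.99 CPM in WT-O2, and at 0.547, 1.28 and 1.05 CPM in KO-RA and 2.45, 3.47 and 1.97 CPM in KO-O2. The WT-O2 lungs were the highest of the 4 groups and did not overlap the KO-O2 lungs. Its log2 fold change was 1.86 ± 0.31 in WT (edgeR, adjusted p = 0.00027) and 1.45 ± 0.32 in KO (adjusted p = 0.0025). In a fit without the pair of erythroid-rich KO-O2 lungs, an alternative chosen after seeing the data, the KO value was 1.05 with an adjusted p of 0.12 (edgeR) and was no longer called.

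Ccl3, which encodes macrophage inflammatory protein 1-alpha, a ligand of CCR1, was at 0.314, 0.505 and 0.860 CPM in WT-RA lungs and 2.93, 4.16 and 3.28 CPM in WT-O2 lungs. In KO it was at 0.923, 0.655 and 0.475 CPM in room air and 3.43, 5.56 and 4.58 CPM in hyperoxia. Hyperoxic lungs were separate from room-air lungs in both genotypes, with log2 fold changes of 2.62 ± 0.33 (6.13-fold) and 2.72 ± 0.32 (6.58-fold; edgeR, adjusted p = 2.4e-05 and 1.4e-05). Its neighbour Ccl4, which encodes macrophage inflammatory protein 1-beta, stayed under 1 CPM in every lung. Ccl4 was at 0.593, 0.404 and 0.206 CPM in WT-RA and 0.614, 0.413 and 0.540 CPM in WT-O2, groups that overlapped (log2 fold change 0.38, 95% interval -0.52 to 1.28, edgeR, adjusted p = 0.50). In KO it was at 0.205, 0.241 and 0.271 CPM in room air and 0.385, 0.779 and 0.736 CPM in hyperoxia, a called rise of 1.39 ± 0.44 (edgeR, adjusted p = 0.022). The interaction of genotype and hyperoxia for Ccl4 was 1.01 (95% interval -0.30 to 2.32, edgeR, adjusted p = 0.84), so the effects in WT and KO were not shown to differ.

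Ccl9, a CCR1 ligand, had the highest level per kilobase of exon among the 6 ligands in WT-RA lungs, 4.09 CPM per kb. It was at 11.5, 14.2 and 11.2 CPM in WT-RA lungs, 20.6, 24.8 and 24.1 CPM in WT-O2 lungs, 9.23, 9.31 and 9.22 CPM in KO-RA lungs and 19.6, 22.4 and 16.99 CPM in KO-O2 lungs. Room-air and hyperoxic lungs were separate in both genotypes. The log2 fold change was 0.92 ± 0.12 in WT (1.89-fold, edgeR, adjusted p = 4.2e-05), which is under the fold threshold, and 1.09 ± 0.13 in KO (2.12-fold, adjusted p = 1.2e-05), which is just over it. Leaving out WT-RA replicate 2 put the WT value at 1.04, and leaving out KO-O2 replicate 2 put the KO value at 0.99, so the calls of both genotypes turned on 1 mouse. Without the erythroid-rich KO-O2 lungs the KO value was 0.88, under the fold threshold.

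Among the receptors, Ccr1, which responds to CCL3 and CCL9, was at 4.12, 4.91 and 4.02 CPM in WT-RA lungs and 10.9, 10.8 and 7.90 CPM in WT-O2 lungs. Its KO-RA levels were 4.24, 3.55 and 4.61 CPM and its KO-O2 levels 8.89, 9.91 and 7.73 CPM. It rose by 1.18 ± 0.17 on the log2 scale in WT and by 1.10 ± 0.17 in KO (edgeR, adjusted p = 6.3e-05 and 0.00014), with no overlap between air and oxygen in either genotype. The KO value was 1.00, and just not called, without KO-RA replicate 2, and 0.91, also not called, without the erythroid-rich KO-O2 lungs.

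Ccr2, the receptor of CCL2, CCL7 and CCL12 on monocytes, was at 14.03, 14.8 and 10.9 CPM in WT-RA lungs and 19.4, 15.4 and 22.6 CPM in WT-O2 lungs. In KO lungs it was at 11.0, 8.07 and 11.5 CPM in room air and 14.4, 13.6 and 22.3 CPM in hyperoxia. Hyperoxic lungs were higher than room-air lungs of the same genotype without overlap, but by less than the fold threshold, at 0.53 ± 0.21 in WT and 0.72 ± 0.21 in KO on the log2 scale (edgeR, adjusted p = 0.057 and 0.016). Without the erythroid-rich KO-O2 lungs the KO value was 1.14 (edgeR, adjusted p = 0.0054), which passed the threshold.

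Ackr2, the decoy receptor, was the only gene of the 9 with a negative log2 fold change in the lung. It was at 44.1, 42.1 and 48.1 CPM in WT-RA lungs, 43.2, 40.0 and 26.1 CPM in WT-O2 lungs, 40.8, 44.5 and 44.6 CPM in KO-RA lungs and 31.8, 33.1 and 40.2 CPM in KO-O2 lungs. WT-O2 replicate 3 was the lowest lung, and the other WT-O2 lungs lay near the room-air range. All KO-O2 lungs lay below all KO-RA lungs, by a small gap. Its log2 fold change was -0.30 in both genotypes (95% interval -0.62 to 0.03 in WT and -0.63 to 0.02 in KO, edgeR, adjusted p = 0.13 in each), and neither was called.

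Per kilobase of annotated exon, Ackr2 was the most abundant of the 9 genes in WT-RA lungs, at 14.8 CPM per kb, followed by Ccl9 at 4.09, Ccl12 at 2.14, Ccr2 at 1.96 and Ccr1 at 1.54, with Ccl2, Ccl3, Ccl4 and Ccl7 between 0.552 and 0.970 CPM per kb. In WT-O2 lungs Ccl2 was first at 19.0 CPM per kb and Ackr2 second at 12.1, with Ccl12 at 7.79, Ccl9 at 7.72, Ccl7 at 5.37 and Ccl3 at 4.51 CPM per kb. Ccl2 therefore moved past Ackr2 in this order, and Ccl2 and Ackr2 also led it in KO-O2 lungs at 15.6 and 11.6 CPM per kb.

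**Figure D2:**
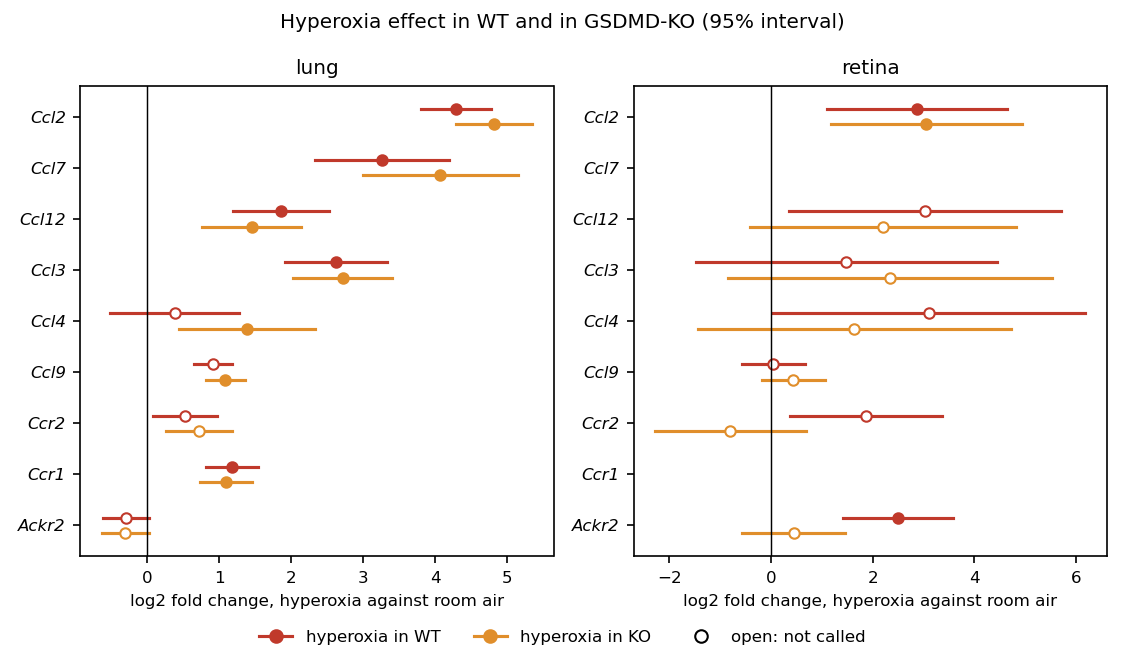
Log2 fold change of hyperoxia against room air (x axis) for each gene in WT and KO lungs (left) and retinas (right), with 95% intervals; filled points were called and open points were not. In the lung the interval of each gene in WT overlapped its interval in KO, and retina intervals were wider. Retina Ccl7 and Ccr1 are not drawn because their counts were too low.

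In total, the values of room-air and hyperoxic lungs did not overlap for 7 of 9 genes in WT, where 49.8% of all genes did not overlap, and for 9 of 9 in KO, where the share was 52.4%. In KO, Ackr2 was lower in hyperoxia and the others were higher. For the marker counts below, 5.04% of all genes were called higher and 6.57% lower in WT, and 4.57% and 6.03% in KO. Among the monocyte and macrophage markers, Cd68 was called higher in WT (1.03 on the log2 scale), and Cd68, Adgre1 and Fcgr1 were called higher in KO (1.33, 1.02 and 1.14), 1 and 3 of 10 in all, while Lyz2, the macrophage lysozyme gene, had log2 fold changes of -0.59 and -0.67, under the fold threshold. Of these 10 markers, 8 had log2 fold changes above 0 in WT (median 0.35) and 7 in KO (median 0.61). Their summed level, which follows the most abundant genes and not most of the list, ran from 2219 to 3176 CPM in WT-RA lungs and 1910 to 2020 CPM in WT-O2 lungs, and from 2385 to 2539 CPM in KO-RA lungs and 1641 to 1863 CPM in KO-O2 lungs, and none of the 10 was at 0 in any lung. Alveolar macrophage markers were called higher for 1 and lower for 4 of 8 in WT, and higher for 1 and lower for 3 of 8 in KO, with sums of 606 to 1019 CPM in WT-RA lungs and 314 to 461 CPM in WT-O2 lungs, and of 303 to 344 CPM in KO-RA lungs and 232 to 349 CPM in KO-O2 lungs. Of the neutrophil markers, 0 of 9 tested were called in WT by edgeR or DESeq2, with 1 at an unadjusted p under 0.05 by edgeR, and 1 of 9 (Camp) was called lower in KO. Neutrophil marker sums ran from 63.6 to 82.6 CPM in WT-RA lungs and from 65.0 to 77.5 CPM in WT-O2 lungs, and from 65.6 to 143 CPM in KO-RA lungs and 61.7 to 65.6 CPM in KO-O2 lungs. T and NK lymphocyte markers were called lower for 4 of 10 in WT, and lower for 3 and higher for 1 of 10 in KO. Their sums were 41.0 to 49.0 CPM in WT-RA lungs and 17.8 to 27.4 CPM in WT-O2 lungs, and 29.97 to 46.4 CPM in KO-RA lungs and 21.7 to 29.2 CPM in KO-O2 lungs. Liver markers were called higher for 3 of 4 tested in KO by edgeR and for 0 by DESeq2, with sums of 285 to 307 CPM in KO-RA lungs and 223 to 413 CPM in KO-O2 lungs. The part of these cell types in the chemokine values was not tested.

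The genotype contrasts gave no call among the 9 genes in the lung. For KO-O2 against WT-O2, 0 of 9 were called by edgeR or DESeq2, 1 had an unadjusted p under 0.05, and 0.0238% of all genes were called. The median log2 difference of the 9 genes was -0.19, with 7 of 9 below 0, against -0.00 for all genes. Ccl12 was the gene under 0.05 (log2 difference -0.67, 95% interval -1.29 to -0.05, edgeR, adjusted p = 0.77) and was the 1 gene of 9 whose groups did not overlap, where 12.2% of all genes did not overlap. Ccl2 was at 12.6 ± 0.8 CPM (SD, n = 3) in KO-O2 against 15.5 ± 4.4 CPM in WT-O2, a log2 difference of -0.29 (95% interval -0.67 to 0.09), and Ccl3 was 0.39 higher (95% interval -0.21 to 0.98). These intervals do not show that the genotypes are alike. Y-linked genes were expressed in 3 of 3 KO-O2 lungs and 1 of 3 WT-O2 lungs, so sex and genotype are only partly separable here.

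For KO-RA against WT-RA, 0 of 9 lung genes were called by edgeR or DESeq2, with 0.137% of all genes called, and 2 were under 0.05 before adjustment. For the 9 genes the median log2 difference was -0.38, with 8 of 9 below 0, against -0.00 for all genes. All 8 alveolar macrophage markers tested also had values below 0 here (median -0.69, 0 called by edgeR with 7 at an unadjusted p under 0.05, and 2 called lower by DESeq2), and their part in this difference was not tested. The 2 of the 9 CC genes under 0.05 before adjustment were Ccl9 and Ccl2. Ccl9 was lower by a log2 difference of -0.41 (95% interval -0.68 to -0.14, edgeR, adjusted p = 0.24), and Ccl2 by -0.82 (95% interval -1.48 to -0.17, edgeR, adjusted p = 0.34). Both were also the genes whose KO-RA and WT-RA lungs did not overlap, 2 of 9, where 15.2% of all genes did not overlap. Since WT-RA lungs held no mouse with Y-linked expression and KO-RA lungs held 2, sex and genotype are only partly separable in this comparison. The interaction of genotype and hyperoxia was called for 0 of 9 genes by edgeR or DESeq2, with 0 at an unadjusted p under 0.05 and 0.00595% of all genes called, and ran from -0.40 for Ccl12 to 1.01 for Ccl4.

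**Figure D3:**
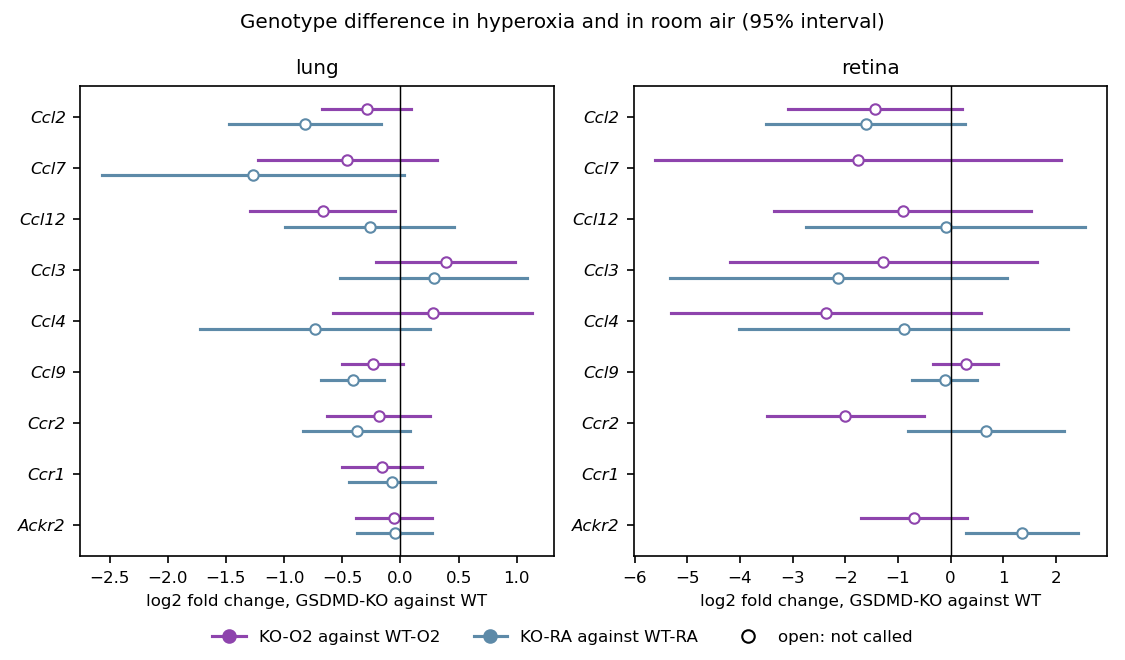
Log2 difference of GSDMD-KO against WT (x axis) for each gene, in hyperoxia and in room air, in lung (left) and retina (right), with 95% intervals; open points were not called. No point is filled in either tissue, and the retina intervals of Ccl3, Ccl4 and Ccl12 span several log2 units, and retina Ccl7 in room air and Ccr1 are not drawn because of low counts.

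Other genes of the pathway came from lists likewise chosen with earlier results of these data known. Of all genes tested in the lung, 5.04% were called higher and 6.57% lower in WT, and 4.57% and 6.03% in KO. Of 15 other CC ligands, 14 were tested, and 4 were called higher and 1 lower in WT, and 6 higher and 3 lower in KO. In WT the higher ones were Ccl1, Ccl8, Ccl11 and Ccl20, and in KO these with Ccl6 and Ccl17, while Ccl19 was lower in both and Ccl27a and Ccl28 in KO. Those with the smallest p were Ccl19, a CCR7 ligand that guides dendritic cells and T cells (-2.13 in WT and -3.42 in KO, both called), Ccl11, an eosinophil attractant (1.49 and 1.61, both called), Ccl6 (0.70, not called, and 1.31, called) and Ccl27a (-0.71, not called, and -1.07, called). Of 12 other CC receptors, 11 were tested, and Ackr3 was among those called higher, while 4 were called lower (Ackr4, Ccrl2, Ccr6 and Ccr7), in both genotypes. Ackr3, a scavenger of CXCL12, rose by 1.75 and 1.64, whereas Ackr4, a scavenger of CCR7 ligands, fell by 3.71 in WT and by 2.70 in KO, and Ccrl2 fell by 2.17 and by 1.77 on the log2 scale. Of the atypical receptors, Ackr3 was thus called higher and Ackr4 lower, and Ackr2 was not called.

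Of 20 genes of chemokine receptor signaling, 0 were called higher and 1 lower in both genotypes, the G-protein subunit Gng2 (-1.21 in WT and -1.09 in KO). This count is close to the share of all genes called lower, 6.57% in WT and 6.03% in KO. The others with the smallest p were under the fold threshold, namely Arrb1 (-0.66 and -0.61), Plcb2 in WT (-0.79) and Prex1 in KO (-0.70). Of 16 chemokine inducers and NF-kB pathway genes, here the inducer list, 15 were tested, with 2 called higher in WT and 2 in KO. Il6, the cytokine interleukin 6, was called in both, at 6, 2 and 2 counts in WT-RA lungs against 28, 61 and 57 in WT-O2, and at 0, 1 and 1 counts in KO-RA lungs against 113, 18 and 23 in KO-O2. Il6 passed the filter on low counts only because of hyperoxic lungs. Its KO-RA counts were too few for a fold change, and KO-O2 replicates differed widely. The other called gene of this list in WT was Tnf, the tumor necrosis factor gene (1.17, against 0.48 in KO). In KO it was Tnfaip3, an inhibitor of NF-kB signaling and not itself an inducer (1.39, against 0.89 in WT). Among the inducers with the smallest p, the NF-kB subunit genes Nfkb2 (0.72 and 0.73), Rela (0.65 in WT), Relb (0.89 in KO) and the cytokine gene Csf1 (0.95 in KO) were higher, and Nfkb1 (-0.59 and -0.56) was lower, in each case under the fold threshold. In the contrasts of genotype and the interaction, 0 genes of these 4 lists were called by edgeR in the lung, with 1 to 6 genes of a list at an unadjusted p under 0.05, and DESeq2 called 1 other CC ligand lower in each of KO-O2 against WT-O2 and KO-RA against WT-RA.

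The first ligand cluster is described here by position, a grouping chosen after the values were seen. In chromosome order it holds Ccl2, Ccl7, Ccl11, Ccl12, Ccl8 and Ccl1, and all 6 were called higher in WT and in KO. Ccl8, which encodes monocyte chemoattractant protein 2, rose by 2.88 on the log2 scale in both genotypes. Its mean went from 0.229 CPM in WT-RA lungs to 1.71 CPM in WT-O2 lungs, and KO-RA lungs averaged 0.160 CPM against 1.21 CPM in KO-O2 lungs. Ccl1, a CCR8 ligand, held 0 to 3 counts per room-air lung and 5 to 17 per hyperoxic lung, too few in KO-RA lungs for a fold change. Ccl7 and Ccl1 passed the filter on low counts only because of hyperoxic lungs, and Ccl8 was likewise low in room air. The calls of this cluster are therefore a description and not a test of position. The second cluster, which begins 1220 kb further on, was mixed in WT. There Ccl3 was called, Ccl9, Ccl6 and Ccl4 were not, and Ccl5, a T cell and monocyte attractant, had a log2 fold change of -0.995 (edgeR, adjusted p = 0.036), just short of the fold threshold. In KO, Ccl9, Ccl6, Ccl3 and Ccl4 were called higher and Ccl5 was at -0.65 (edgeR, adjusted p = 0.17).

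**Figure D4:**
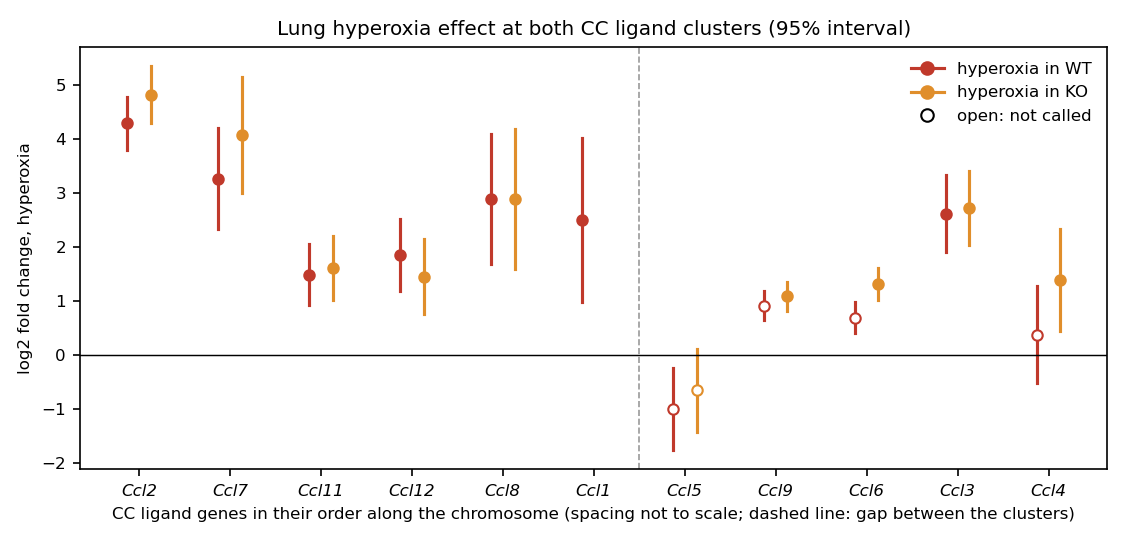
Log2 fold change of hyperoxia against room air in the lung (y axis) with 95% intervals for 11 CC ligand genes in their order along chromosome 11 (x axis, spacing not to scale), in WT and KO; filled points were called. All points of the 6 genes left of the dashed line are filled, and those of Ccl5 lie below 0. Ccl1 in KO is not drawn because KO-RA lungs held 3 counts in all.

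Genes whose lung pattern was most like that of Ccl2 over the 12 libraries were Saa3 and Psrc1, with a root mean square difference of centred log2 CPM of 0.39 and 0.44, against 2.23 for the median of 14650 genes. Saa3 encodes an acute-phase protein and went from 3.27 CPM in WT-RA to 38.4 CPM in WT-O2, and from 1.43 to 35.7 CPM in KO. For Ccr2 the nearest were Zfand4, Naaa and Ciita (0.16, 0.18 and 0.19, against a median of 0.46), of which Ciita encodes the activator of MHC class II genes. For Ackr2 they were Ybey, Cog5 and Med18 (0.10, 0.12 and 0.13, against 0.33).

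In the retina, taken after a return to room air, the CC genes were low, and Ccl2 and Ackr2 were the genes that passed the test. Of the 9 genes 8 passed the filter on low counts, and Ccr1 did not, at 0 to 15 counts per library (1, 0 and 4 in WT-RA, 8, 15 and 8 in WT-O2, 1, 1 and 2 in KO-RA, and 5, 1 and 1 in KO-O2). In WT retinas 2 of 8 genes were called higher and 0 lower, where 1.77% of the 19173 genes tested were called higher and 0.266% lower. In KO retinas 1 of 8 was called higher (Ccl2) and 0 lower, where 1.64% of all genes were called higher and 0.553% lower. Y-linked genes were expressed in 3 of 3 room-air and 1 of 3 hyperoxic retinas of each genotype, so sex and oxygen are only partly separable here. With Y-linked expression as a covariate, 0 of the 8 genes were called in either genotype. The median log2 fold change of the 8 genes was 2.69 in WT and 1.92 in KO, against 0.00 for all genes, and both medians include a fitted value of Ccl7 that rests on 0 or 3 counts in room air. Without Ccl7 the medians were 2.50 and 1.64, and with Ccl7 at the bound set by 3 counts over the KO-RA group the KO median stayed 1.92. All but Ccl9 and Ackr2 passed the filter because of counts in hyperoxic retinas, and the genes were chosen with earlier results of these data known. The medians are therefore a description and not a test.

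**Figure D5:**
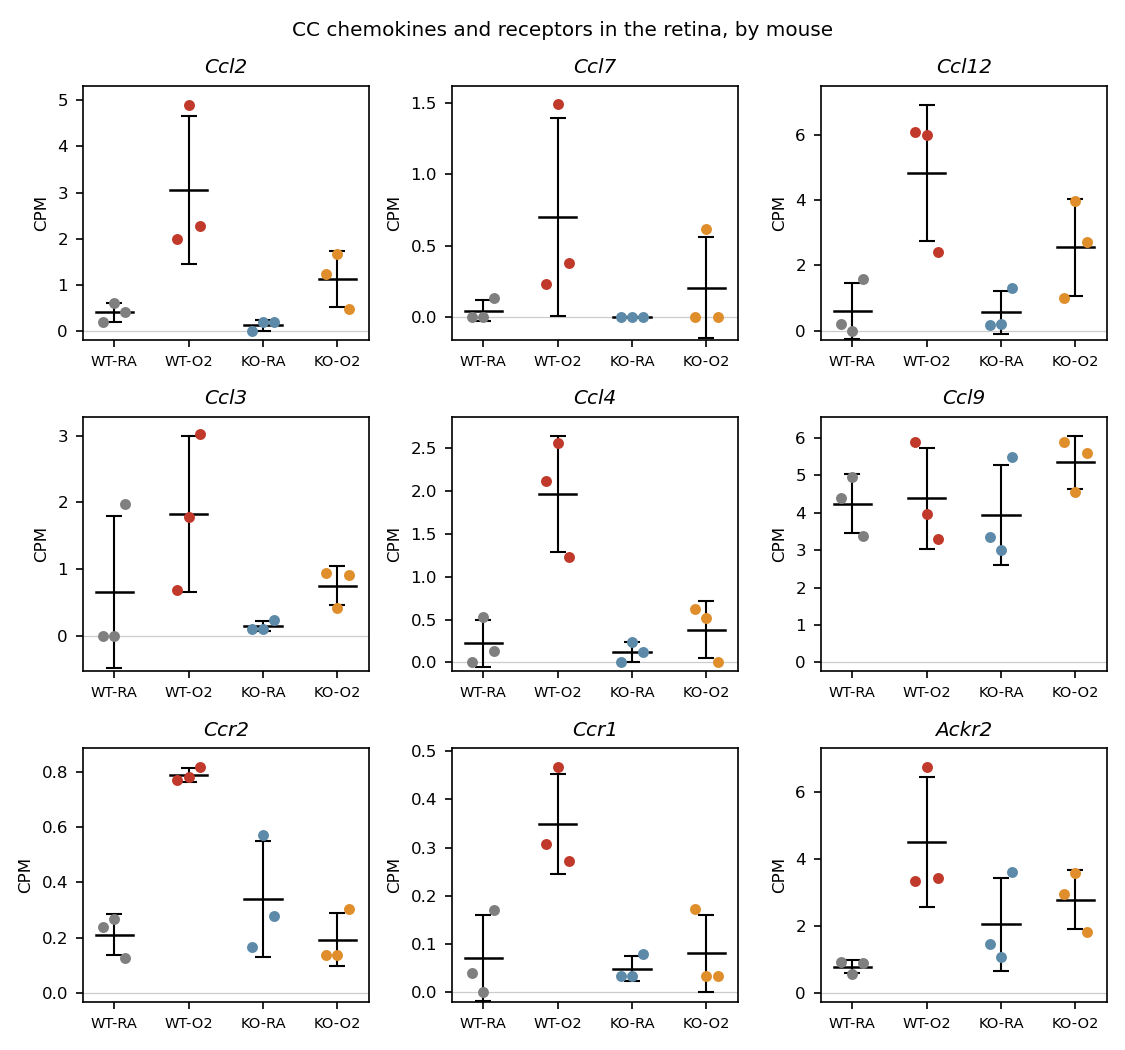
Level in CPM (y axis) of each CC gene in every retina, by group (x axis). Points are mice, horizontal lines are means and bars are SD over 3 mice, so a bar can reach below 0 at low counts. WT-O2 retinas were highest on average for each gene except Ccl9, and several groups hold a mouse at 0.

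Retinal Ccl2 was at 0.200, 0.610 and 0.428 CPM in WT-RA and 2.00, 4.90 and 2.28 CPM in WT-O2. In KO it was at 0, 0.202 and 0.199 CPM in room air and 1.25, 1.68 and 0.475 CPM in hyperoxia. Hyperoxic retinas were above room-air retinas of their genotype without overlap, and all KO-O2 retinas lay below all WT-O2 retinas. The log2 fold change was 2.88 ± 0.81 in WT (7.34-fold, edgeR, adjusted p = 0.091) and 3.06 ± 0.86 in KO (8.32-fold, adjusted p = 0.074). Both calls lie near the threshold. Without any 1 of the 6 WT retinas the adjusted p of the WT value was 0.15 to 0.31, and the gene was not called. In KO the adjusted p without any 1 of 6 retinas was 0.080 to 0.24, with a call in the fit without KO-O2 replicate 3 and in no other. With Y-linked expression as a covariate neither was called, at log2 fold changes of 2.98 in WT and 3.13 in KO (edgeR, adjusted p = 0.25 and 0.13).

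Retinal Ackr2 was at 0.920, 0.572 and 0.899 CPM in WT-RA and 3.35, 6.74 and 3.44 CPM in WT-O2, with a clear gap between the groups. In KO it was at 1.45, 1.08 and 3.62 CPM in room air and 2.95, 3.59 and 1.83 CPM in hyperoxia, groups that overlapped, with KO-RA replicate 3 the highest of them. Its log2 fold change was 2.50 ± 0.49 in WT (5.64-fold, edgeR, adjusted p = 0.026, called) and 0.45 ± 0.46 in KO (adjusted p = 0.64). Without KO-RA replicate 3 the KO value was 1.14, still not called, and over all fits without 1 mouse it ran from 0.14 to 1.14. Without the library labelled WT-RA replicate 2, the WT retina with little Gsdmd, the WT value was 2.30 (edgeR, adjusted p = 0.11) and was not called, nor was the value of 2.52 with Y-linked expression as a covariate (edgeR, adjusted p = 0.10). The interaction was -2.05 (95% interval -3.51 to -0.58, edgeR, adjusted p = 0.30), which missed the threshold after adjustment and was -1.36 without KO-RA replicate 3. KO-RA retinas were above WT-RA retinas without overlap (1.35, 95% interval 0.29 to 2.42, edgeR, adjusted p = 0.31), and this difference did not pass the test and was 0.66 without KO-RA replicate 3. KO-RA replicate 3 also held the highest sum of liver marker genes, 2157 CPM against 279 to 625 CPM in the other room-air retinas, and the part of this in its Ackr2 level was not tested.

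The receptor Ccr2 was at 0.240, 0.267 and 0.128 CPM in WT-RA retinas and 0.770, 0.780 and 0.817 CPM in WT-O2 retinas. In KO mice it was at 0.169, 0.572 and 0.278 CPM in room air and 0.139, 0.137 and 0.305 CPM in hyperoxia. These levels come from 3 to 25 counts per library, and Ccr2 passed the filter on low counts only because of its WT-O2 counts. WT-O2 retinas stood above all other retinas. The log2 fold change was 1.87 ± 0.68 in WT (edgeR, adjusted p = 0.18) and -0.80 ± 0.67 in KO (adjusted p = 0.56). DESeq2 called the WT value (1.89, adjusted p = 0.093). Without KO-RA replicate 2, the highest KO retina, the KO value was -0.20. KO-O2 retinas were lower than WT-O2 retinas by a log2 difference of -2.00 (95% interval -3.49 to -0.51, edgeR, adjusted p = 0.24), which did not pass the test.

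Of the remaining ligands, Ccl12 was at 0.200, 0 and 1.58 CPM in WT-RA and 6.08, 5.99 and 2.42 CPM in WT-O2, and at 0.169, 0.202 and 1.31 CPM in KO-RA and 1.01, 3.97 and 2.71 CPM in KO-O2. WT groups did not overlap and KO groups did, with log2 fold changes of 3.03 ± 1.21 (edgeR, adjusted p = 0.23) and 2.20 ± 1.18 (adjusted p = 0.33). Without WT-RA replicate 3, the highest of its group, the WT value was 5.55 with an adjusted p of 0.056 and was called, and DESeq2 called it with all mice (adjusted p = 0.082). Without KO-RA replicate 3, likewise the highest of its group, the KO value was 3.76 and was not called. Ccl4 was at 0, 0.534 and 0.128 CPM in WT-RA and 2.12, 2.56 and 1.23 CPM in WT-O2 (log2 fold change 3.12, 95% interval 0.05 to 6.19, edgeR, adjusted p = 0.28), and at 0, 0.235 and 0.119 CPM in KO-RA and 0.625, 0.513 and 0 CPM in KO-O2 (1.64, 95% interval -1.44 to 4.72, adjusted p = 0.56).

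Ccl3 was uneven, since WT-RA replicate 3 held 46 counts and the other WT-RA retinas 0, against 18, 57 and 89 counts in WT-O2, 3, 3 and 6 in KO-RA and 27, 12 and 27 in KO-O2. Its log2 fold change was 1.49 ± 1.35 in WT (edgeR, adjusted p = 0.63) and 2.34 ± 1.46 in KO (adjusted p = 0.40). Ccl7 had 0, 0 and 3 counts in WT-RA, 6, 48 and 11 in WT-O2, 0 in every KO-RA retina and 0, 18 and 0 in KO-O2, too few for a fold change against room air. Ccl9 was flat, between 2.99 and 5.90 CPM over all 12 retinas, with log2 fold changes of 0.04 (95% interval -0.57 to 0.66) in WT and 0.44 (95% interval -0.17 to 1.06) in KO.

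Hyperoxic and room-air retinas did not overlap for 6 of 8 genes in WT, where 24.0% of all genes did not overlap, and for 2 of 8 in KO, where 26.2% did not. Microglia markers summed to 50.6 to 73.4 CPM in WT-RA retinas and 83.0 to 115 CPM in WT-O2 retinas, and to 56.4 to 61.0 CPM in KO-RA retinas and 82.9 to 102 CPM in KO-O2 retinas. They were called higher for 2 of 10 in WT and 3 of 10 in KO, where 1.77% and 1.64% of all genes were called higher. The called markers were C1qa (1.10 and 1.57) and Trem2 (1.43 and 1.72) in both and Cx3cr1 (1.03) in KO. Monocyte and macrophage markers summed to 36.9 to 46.9 CPM in WT-RA retinas and 53.9 to 74.4 CPM in WT-O2 retinas, and to 29.98 to 50.4 CPM in KO-RA retinas and 49.5 to 70.3 CPM in KO-O2 retinas, with Cd68 called in both genotypes (1.08 and 1.60) and Itgam in WT (1.04). No microglia or monocyte marker was at 0 in any retina, whereas 6 of 10 neutrophil markers were at 0 in at least 1 retina. The part of these cells in the Ccl2 values was not tested.

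For KO-O2 against WT-O2 in the retina, 0 of 8 genes were called by edgeR or DESeq2, where 0.292% of all genes were called, and Ccr2 alone had an unadjusted p under 0.05. The median log2 difference was -1.35 (-1.28 without Ccl7), with 7 of 8 genes below 0, against 0.01 for all genes, and 3 of 8 (Ccr2, Ccl2 and Ccl4) did not overlap, where 19.9% of all genes did not. Erythroid markers moved with this contrast, since 4 of 5 tested were called lower (median -1.59), with sums of 370 to 429 CPM in KO-O2 retinas and 983 to 1552 CPM in WT-O2 retinas, and their part in the chemokine and Ccr2 differences was not tested. Ccl2 was lower by -1.43 (95% interval -3.09 to 0.23, edgeR, adjusted p = 0.48) and Ccl4 by -2.36 (95% interval -5.30 to 0.58, adjusted p = 0.51). For KO-RA against WT-RA, 0 of 8 were called by edgeR or DESeq2, where 0.00522% of all genes were called, 1 had an unadjusted p under 0.05 (Ackr2), and the same 1 of 8 did not overlap, where 17.7% of all genes did not. The median log2 difference was -0.50 (-0.11 without Ccl7). The interaction was called for 0 of 8 genes by edgeR or DESeq2, where 0.00522% of all genes were called, with 2 (Ackr2 and Ccr2) at an unadjusted p under 0.05.

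Few other pathway genes passed the test in the retina. Of all genes tested there, 1.77% were called higher and 0.266% lower in WT, and 1.64% and 0.553% in KO. Of 10 other CC ligands tested, 0 were called in WT by edgeR or DESeq2, with 1 at an unadjusted p under 0.05 by edgeR, and 1 was called in KO, Ccl28, a mucosal ligand of CCR3 and CCR10 (1.37, edgeR, adjusted p = 0.053, against 0.93 and adjusted p = 0.19 in WT). Of 8 other CC receptors and 20 receptor signaling genes tested, 0 were called in either genotype by edgeR or DESeq2, with 2 receptors in WT, 0 in KO, and 6 signaling genes in each genotype at an unadjusted p under 0.05 by edgeR. Of 12 genes of the inducer list tested, 1 was called in WT, Nfkb2 (1.11, edgeR, adjusted p = 0.039), and 0 in KO by edgeR or DESeq2, with 5 at an unadjusted p under 0.05 and Nfkb2 at 0.66 (edgeR, adjusted p = 0.16). In the contrasts of genotype and the interaction 0 genes of these lists were called by edgeR, with 0 to 5 genes of a list at an unadjusted p under 0.05, and DESeq2 called 1 gene of the inducer list higher and 1 lower for the interaction.

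The retinal genes most like Ccl2 over the 12 libraries were Timp1, Tnnt2 and Muc2, with root mean square differences of 0.57, 0.59 and 0.70 against 1.68 for the median of 15425 genes. Timp1, which encodes an inhibitor of metalloproteinases, averaged 1.67 CPM in WT-RA retinas and 11.2 CPM in WT-O2 retinas, and 1.21 CPM in KO-RA retinas and 4.27 CPM in KO-O2 retinas. For Ackr2 the nearest were Nes, Ctsc and Fli1 (0.48, 0.51 and 0.52 against 1.03), and for Ccr2 they were Ifi27, Immp2l and Ifitm1 (0.48, 0.49 and 0.52 against 0.84). Nes encodes the filament protein nestin and Fli1 a transcription factor of endothelial and blood cells, and the likeness is a description over libraries that share tissue, depth and groups.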

How the data were processed

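Whole-tissue RNA was sequenced as paired reads of 150 bases. Per the study's methods, the authors estimated transcript abundance with kallisto, summed it to genes with tximport, and deposited 1 table of estimated counts per tissue, with no other normalization stated. The methods and the processing notes name different mouse builds, so positions here come from GENCODE M21 on GRCm38, joined by gene identifier, which gave symbols for 35816 lung and 35968 retina genes. To within 0.01, 55.8% of nonzero lung values were whole, against 2.20% of retina values, so the retina table may have been rescaled and tests were made only within a tissue.

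Counts were rounded and fitted per tissue with edgeR 4.0.16 in R 4.3.3, in 1 quasi-likelihood fit of all 12 libraries with a term per group, filterByExpr and TMM factors, after a check on simulated data. Contrasts were hyperoxia in WT and in KO, KO against WT in each condition, and the interaction, with 0.1 as the limit on the adjusted p for the last. P-values were adjusted by Benjamini-Hochberg over all genes tested. CPM used library totals over the genes tested, scaled by the TMM factors. Sums over all genes had a median of 29226529 in the lung and 27827879 in the retina. The genes named were these 9, Gsdmd, the 3 of each other list with the smallest p, and the 3 most like Ccl2, Ccr2 and Ackr2 in log2 CPM centred over 12 libraries, among tested genes averaging 1 CPM or more. Other list genes were named after their values were seen. Some genes that these rules chose are not reported here. DESeq2 1.42.0, other scalings, no filter, no fold threshold, only the groups compared, a Y-linked covariate and leaving out each mouse were alternatives. Members and lists were chosen with earlier results of these data known.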

Additional observations from a re-analysis of the deposited data

Results flagged for a closer look

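Ccr2 in the retina had effects of hyperoxia of opposite sign in WT and KO. Every WT-O2 retina was above the WT-RA mean and every KO-O2 retina below the KO-RA mean. The difference of the effects, KO minus WT, was -2.67 on the log2 scale (95% interval -4.77 to -0.57), which did not pass edgeR's quasi-likelihood test after adjustment over all genes (adjusted p = 0.35). Ccr2 passed the filter on low counts only because of its WT-O2 counts. Libraries held 3 to 25 Ccr2 counts, and without 1 mouse the WT effect of 1.87 was 1.62 to 2.07. The KO effect was -0.80 (95% interval -2.28 to 0.68), and -1.28 to -0.20 without 1 mouse. It was smallest without KO-RA replicate 2 (0.572 CPM), and KO-O2 replicate 3 (0.305 CPM) lay above both other KO-RA retinas (0.169 and 0.278 CPM). DESeq2 called the WT effect (1.89, adjusted p = 0.093) and not the difference of the effects.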

How the results depend on the processing

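In the lung, 5 genes in WT and 7 in KO were called higher, with the same names, under DESeq2, RLE factors, library totals, no filter, the Y-linked covariate and a fit of only the groups compared. Without 1 mouse the counts were 5 to 6 and 6 to 7. Without both erythroid-rich KO-O2 lungs, chosen after seeing the data and leaving 1 KO-O2 lung assumed to vary like the other groups, 5 were called in KO, with Ccl9, Ccl12 and Ccr1 lost and Ccr2 gained. In the retina the WT count of 2 was 1 with no filter, 4 with DESeq2 (which added Ccl12 and Ccr2), 0 with the Y-linked covariate and 0 to 3 without 1 mouse (0 without the library labelled WT-RA replicate 2). The KO count of 1 was 0 with no filter, with the covariate or with only the groups compared, and 0 to 1 without 1 mouse. Other CC and signaling genes called in the retina went from 1 to 3 with library totals, which moved the median of all genes by 0.23 on the log2 scale for hyperoxia in WT. Genotype contrasts and interactions called 0 of these genes in every setting. The cause of these changes was not tested.

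Of 1125 single values under alternatives, 1049 kept their side of the threshold and direction, 23 lost a call, 8 gained one and 45 changed sign, over 15 results of which 0 were called. For KO-O2 against WT-O2 lungs, Ackr2 was -0.25 to 0.084 without 1 mouse, 0.14 with the Y-linked covariate and 0.14 without the erythroid-rich lungs, Ccr2 was 0.22 without those lungs, and Ccr1 was 0.032 with the covariate. For KO-RA against WT-RA lungs, Ccr1 was -0.16 to 0.021 without 1 mouse and 0.11 with the covariate, Ackr2 was -0.092 to 0.0064 and 0.14, and Ccl12 was -0.53 to 0.087 without 1 mouse. For the lung interaction, values without 1 mouse were -0.35 to 0.38 for Ccl3, -0.20 to 0.13 for Ackr2 and -0.078 to 0.33 for Ccr2, Ackr2 was 0.0018 with the covariate and 0.19 without the erythroid-rich lungs, and Ccl9 was -0.039 without them. In the retina without 1 mouse, Ccl9 was -0.23 to 0.22 for hyperoxia in WT and -0.42 to 0.053 for KO-RA against WT-RA, Ccl12 was -1.64 to 2.43 for KO-RA against WT-RA and -3.35 to 0.73 for the interaction, and the Ccl2 interaction was -0.40 to 0.69. With library totals, Ccl9 and Ccl12 for KO-RA against WT-RA were 0.025 and 0.043.

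Counts of all genes called in the retina were 391 and 420 for hyperoxia in WT and in KO, 56 and 1 for genotype in hyperoxia and in room air, and 1 for the interaction, against 638, 655, 158, 59 and 542 with DESeq2. Those in the lung were 4, 23 and 1 for the last 3 contrasts, against 32, 72 and 109 with DESeq2. No paired analysis was possible because the labels give each mouse an identifier of its own and no number shared between groups. Values could not be given where the mice of a group held 3 counts or fewer in all, as for retinal Ccl7. With 3 mice a group and few counts in the retina, a missed threshold does not show that groups are alike.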
